A study of Caenorhabditis elegans with 2 samples.

Results

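UNC-120 is an SRF-like MADS box protein that regulates transcription in muscle. Its anti-GFP ChIP-seq list from whole Caenorhabditis elegans embryos was searched for autosomal peaks far from any protein-coding promoter. A peak was taken when its summit lay on chromosomes I to V, outside every protein-coding gene body, and outside all windows from 1000 bp upstream to 500 bp downstream of a protein-coding 5' end. Summits within 300 bp of a tRNA gene or 200 bp of a snoRNA or snRNA gene were left out. The rule used position alone, and it kept 578 of the 2280 autosomal peaks (25.4%) among the 2951 regions of the list. These 578 autosomal intergenic distal peaks are called distal peaks here.

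The worms were of strain OP659, genotype unc-119(tm4063) III; wgIs659, and carried UNC-120 with GFP and FLAG fused to its C terminus. Embryos of mixed sex and mixed stage were collected 3 h after synchronization by egg bleaching, and the chromatin was sonicated. There were 2 biological replicates of 1 group, and both carried the tagged protein, so no condition is compared and no test over samples was possible. Whole embryos were used, so the cells in which a site was occupied cannot be told apart.

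SRF-type factors bind the CArG box, an A/T-rich core flanked by C and G pairs. In C. elegans, UNC-120 acts with the MyoD homologue HLH-1 to promote body wall muscle fate, and HLH-1, a bHLH protein, binds E-boxes. Genes in this genome are closely packed, so an element far from a promoter often lies between the ends of neighbouring genes, where enhancers, noncoding RNA genes and pseudogenes are found. GA and CA repeats are simple sequences, and some animal transcription factors bind GA repeats.

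Sequence around the strongest distal peaks is printed below for ce11, plus strand, from 50 bp before to 50 bp after the summit. The peak nearest F54F12.1 (chrIII:13062521-13062621) had the highest score of all distal peaks, and the peak nearest gpb-1 (chrII:11749784-11749884) was next. Capitals mark runs of CACACACA, a repeat examined after values were seen.
F54F12.1: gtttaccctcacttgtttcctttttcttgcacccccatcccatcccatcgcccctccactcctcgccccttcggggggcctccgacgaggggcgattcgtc
gpb-1: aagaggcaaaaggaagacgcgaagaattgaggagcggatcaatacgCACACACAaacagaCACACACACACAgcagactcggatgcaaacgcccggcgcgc
The F54F12.1 peak held neither that repeat nor any other sequence marked below.

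The strongest distal peaks outside the first autosome with GAGAGAGA on either strand in the printed stretch were those nearest egl-9 (chrV:10466788-10466888) and T23F11.4 (chrIII:4666926-4667026). Capitals mark the repeat, which reads TCTCTCTC on the printed strand.
egl-9: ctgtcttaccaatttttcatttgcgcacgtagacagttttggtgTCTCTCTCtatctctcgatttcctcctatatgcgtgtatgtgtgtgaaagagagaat
T23F11.4: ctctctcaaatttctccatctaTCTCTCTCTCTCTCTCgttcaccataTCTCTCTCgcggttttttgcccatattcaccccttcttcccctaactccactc
The strongest with the E-box CAGCTG in the printed stretch were those nearest Y116A8B.1 (chrIV:17215189-17215289) and C01G6.4 (chrII:9274056-9274156). Capitals mark the E-box.
Y116A8B.1: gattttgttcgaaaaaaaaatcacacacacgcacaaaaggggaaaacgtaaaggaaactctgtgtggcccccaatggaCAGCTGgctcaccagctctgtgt
C01G6.4: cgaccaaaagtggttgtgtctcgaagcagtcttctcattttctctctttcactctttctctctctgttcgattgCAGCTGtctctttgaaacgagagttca
The strongest with a CArG box in the printed stretch was the peak nearest vrp-1 (chrIV:3014719-3014819), with the box in capitals.
vrp-1: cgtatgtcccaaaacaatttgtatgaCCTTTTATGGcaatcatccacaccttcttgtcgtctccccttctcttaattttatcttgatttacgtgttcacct

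A pair of further stretches was chosen after their values were seen. The peak nearest hrg-5 (chrIV:11026154-11026254) lies beside the microRNA gene mir-51, and capitals mark its match to GGTTCGANNCC, the B box letters of tRNA-type promoters, on the opposite strand. The peak upstream of hlh-1 (chrII:4516436-4516536) held none of the sequences searched within 100 bp of its summit.
hrg-5: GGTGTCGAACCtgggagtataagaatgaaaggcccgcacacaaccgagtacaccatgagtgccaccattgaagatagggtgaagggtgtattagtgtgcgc
hlh-1: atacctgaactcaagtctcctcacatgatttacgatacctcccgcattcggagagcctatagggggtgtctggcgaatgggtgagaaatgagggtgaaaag

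The distal peaks ranged widely in strength. Their score, the authors' measure of peak strength on a scale not given in the sources used here, ran from 185 to 1913, with a median of 293 and quartiles of 227 and 405. Autosomal peaks in 5' end windows had a median of 289, distal peaks inside gene bodies 278, and peaks at small RNA genes 364. Distal intergenic peaks were thus about as strong as promoter peaks at the median, and small RNA gene peaks stood higher. Of the distal peaks, 1 was among the 10 strongest nuclear peaks, 10 among the 100 strongest, and 51 (8.82%) among the strongest 295, against 9.52% of 5' window peaks. The 178 peaks on X that met the same rule had a median score of 277.

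Counted per length of sequence, the distal peaks were denser than peaks in gene bodies. The autosomes held 19.2 Mb of sequence that met the rule, 23.3% of their length, and the distal peaks numbered 30.1 per Mb of it. The 5' windows held 43.6 peaks per Mb, gene bodies away from 5' ends 8.97, sequence beside small RNA genes 462, and the matching sequence on X 31.7. Density differed between autosomes, at 53.4 distal peaks per Mb on I, 40.4 on III, 27.6 on II, 24.0 on IV and 19.5 on V. As a share of all peaks on the chromosome they differed less, at 26.7% on I, 23.2% on III, 23.3% on II, 27.9% on IV and 25.5% on V. Peaks of every kind numbered 559 on I and 392 on V, so the differences in density are not particular to distal peaks. On each of the 5 autosomes, the middle of the chromosome by length held more per Mb than the outer parts combined. The values were 63.9 against 48.9 on I, 40.3 against 21.6 on II, 56.4 against 32.1 on III, 39.5 against 18.2 on IV and 22.8 against 18.1 on V. These are given for distal peaks only, with no value for all peaks beside them.

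The same summits were looked up in the ranked list of each replicate alone. A summit in the top 2946 regions of both lists was found for 449 of 578 distal peaks (77.7%, Wilson 95% interval 74.1 to 80.9), beside 77.6% of all nuclear peaks. Replicate 1 alone supported 55 of the rest, replicate 2 alone 68, and neither list placed the other 6 in its top. No summit within 200 bp was found for 2 distal peaks in replicate 1 and for 1 in replicate 2. Across the 575 matched in both, Spearman's rank correlation was 0.705, as a description over peaks that share the 2 libraries. Because the list was thresholded on the replicates together, much of this overlap is built in.

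**Figure D1:**
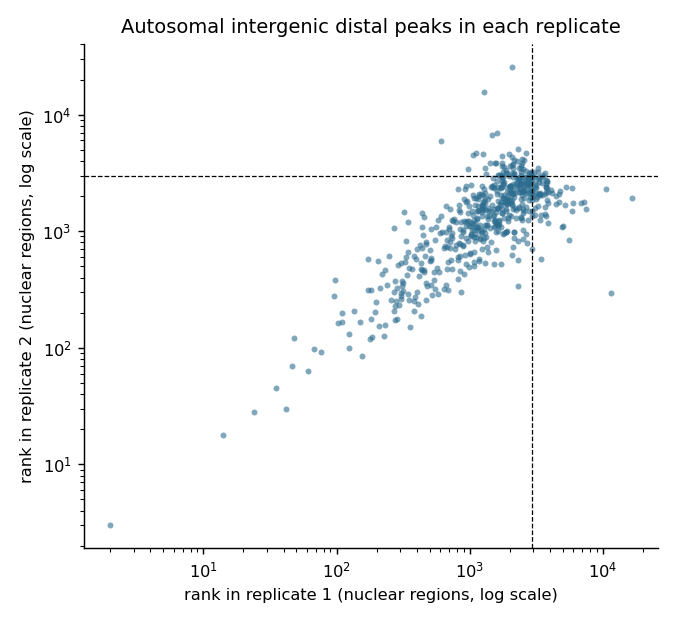
Rank of each distal peak in the list of replicate 1 (x) and replicate 2 (y), log scales, for the 575 matched in both lists; dashed lines mark rank 2946. The strongest peaks fall near the diagonal in both lists, and the cloud widens near the dashed lines, where 449 of 578 distal peaks lie inside both.

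The strongest distal peak lay on chromosome III with its summit at 13062571, in a gap of 15313 bp between the divergent genes F54F12.1 and Y39E4B.6. Its score was 1913, its nuclear rank 2, and its ranks in the replicate lists 2 and 3. It stood 7129 bp from the nearest 5' end, and no noncoding gene was annotated within 200 bp. The peak nearest gpb-1, which encodes a G protein beta subunit, followed at 1226, with its summit 1223 bp upstream and replicate ranks of 14 and 18. Both were near the top of both lists.

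A peak 2870 bp upstream of lgc-26, a ligand-gated ion channel gene on chromosome V, scored 1106, with ranks of 24 and 28. The 201 bp around its summit had 32 similar copies elsewhere in the genome, and a second summit 357 bp away, with a score of 682, had 31. The part of these copies in the level at this locus was not tested. Similar copies, of at least 80% identity over at least 160 bp, were found for 16 of 578 distal peaks (2.77%).

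Next came the peaks nearest T19C3.4 on III (score 1063, ranks 42 and 30) and hrg-5 on IV (1033, ranks 35 and 45). The hrg-5 summit lies in a gap of 2418 bp between the 3' ends of hrg-5, named for its response to heme, and alh-3, an aldehyde dehydrogenase gene. It falls in the noncoding gene F36H1.17 and within 200 bp of mir-51. A peak nearest casc-3, which encodes an exon junction complex component, scored 976, with ranks of 46 and 70. A peak beside mir-52, of the same microRNA family as mir-51, scored 946 and ranked 61 and 63. These microRNA peaks both lay in convergent gaps, where neighbouring genes end toward each other.

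The peak nearest rga-5 scored 900, with ranks of 48 and 120. The peak upstream of unc-120 itself scored 880, with ranks of 68 and 98, and that nearest sup-26, which encodes an RNA-binding protein, scored 874, with ranks of 76 and 92. The remaining peaks among the 15 strongest were nearest C46C2.7 (803), the chromodomain helicase gene chd-7 (791), the prolyl hydroxylase gene egl-9 (785), Y39E4B.6 (767) and the nuclear hormone receptor gene nhr-20 (766). Their ranks ran from 2 to 178 in replicate 1 and from 3 to 167 in replicate 2, so all 15 were strong in each library.

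Most distal peaks lay upstream of the gene whose 5' end was nearest. This held for 471 of 578 (81.5%, Wilson 95% interval 78.1 to 84.4), and 63.9% of the eligible sequence lies on that side of its nearest 5' end. The median distance to the nearest 5' end was 2222.5 bp, with quartiles of 1442.5 and 3633 bp, and the eligible sequence had a median of 2657 bp. Distances ran from 537 bp, downstream of the 5' end of try-10 (score 291), to 16566 bp. The rule itself sets the lower bound. Within 2000 bp there were 255 distal peaks (44.1%), and beyond 5000 bp there were 79 (13.7%).

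Beyond 1000 bp, density fell with distance. It was 46.6 per Mb from 1001 to 1500 bp, 32.5 from 1501 to 2000 bp, 28.6 from 2001 to 3000 bp, 27.5 from 3001 to 5000 bp, 20.7 from 5001 to 10000 bp and 19.9 beyond 10000 bp. The bin up to 1000 bp held 6 peaks and 13.2 per Mb, and by the rule these lie downstream of the 5' end. Scores did not follow this order, since Spearman's rank correlation of score and distance was -0.0461 over the 578 peaks. Just inside the 1000 bp edge were peaks 1002 bp from algn-10 (score 428) and 1004 bp from flh-3 (196) and lrk-1 (193). Just outside were peaks 993 bp from F28H1.1 (669), 998 bp from dhs-8 (581) and 999 bp from Y54G2A.26 (452). The farthest peak, 16566 bp from aakg-1, an AMPK gamma subunit gene, had a score of 212, and 2 similar copies elsewhere.

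The flanking genes' orientation separated the peaks further. Divergent gaps, which hold 5' ends on both sides, held 203 distal peaks (35.1%) and 36.5 per Mb. Tandem gaps, between genes on the same strand, held 349 (60.4%) and 33.9 per Mb, and convergent gaps held 26 (4.50%) and 7.80 per Mb, in 17.4% of the eligible sequence. Median scores were alike, at 293 in divergent, 293 in tandem and 296 in convergent gaps. The 26 convergent peaks included the pair of strong peaks at mir-51 and mir-52. A median gap of 6028 bp surrounded a distal peak, and 456 of 578 stood over 1000 bp from every protein-coding gene body, while 24 lay within 200 bp of one. The rule leaves out 1000 bp upstream of every 5' end, so in divergent gaps the distance over 1000 bp is built in. No share of eligible sequence is set beside these counts.

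**Figure D2:**
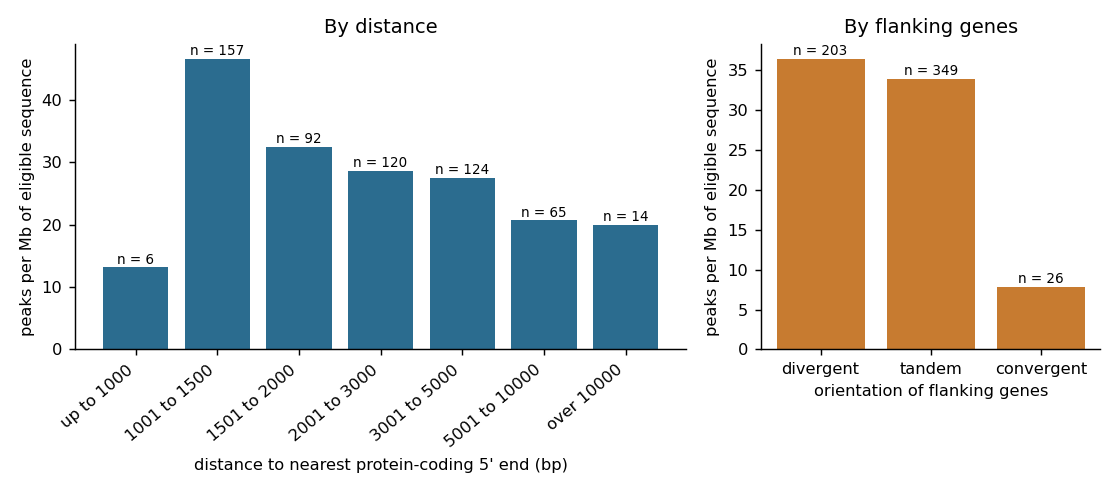
Distal peaks per Mb of sequence that meets the rule, by distance to the nearest protein-coding 5' end (left) and by orientation of the flanking genes (right); n is the number of peaks. Density was 46.6 per Mb at 1001 to 1500 bp and 19.9 beyond 10000 bp, and convergent gaps held 7.80 per Mb against 36.5 in divergent gaps.

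The kinds of noncoding gene at the summits differed from those in the surrounding sequence. The summit lay in an annotated noncoding gene or pseudogene for 70 of 578 distal peaks (12.1%, Wilson 95% interval 9.70 to 15.02), and such genes occupy 15.1% of the eligible sequence. Among all nuclear peaks the share was 16.1%, but that set includes the peaks at tRNA, snoRNA and snRNA genes, which the rule leaves out. Genes of the class ncRNA held 55 (9.52%, 7.38 to 12.2), and they make up 1.36% of the eligible sequence, a ratio of 7.0. Long intergenic RNA genes held 11 (1.90%, 1.07 to 3.38) against 0.790% of sequence. Pseudogenes, gene copies that have lost their function, held 4 (0.692%, 0.269 to 1.77) against 12.3% of sequence.

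The piRNA genes, which encode short germline RNAs that guard against transposons and lie mainly in clusters on chromosome IV, held 0 of 578 summits, with a Wilson upper limit of 0.660%, and occupy 0.665% of the sequence. Within 200 bp of a piRNA gene there were 7 distal peaks (1.21%), against 7.91% of sequence. MicroRNA genes held 1 summit (0.173%), against 0.0335% of sequence. It lay at mir-8209 in the gap upstream of the junctophilin gene jph-1, with a score of 500. Within 200 bp of a microRNA gene there were 5 summits (0.865%), against 0.170% of sequence. No summit fell in an rRNA gene, a class that occupies 0.0456% of the eligible sequence. Peaks at a noncoding gene had a median score of 311, and other distal peaks 291.

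The strongest distal peaks at noncoding genes began with F36H1.17 beside mir-51, with a score of 1033, and Y37A1B.330 with Y37A1B.335 beside mir-52, with 946. Genes D1081.16 and D1081.15 lay at the unc-120 summit, with 880. They were followed by C46C2.12 with C46C2.11 (803), the long intergenic RNA gene linc-91 near chd-7 (791), and T23F11.9 with T23F11.8 (766). The next peaks were at B0350.84 with B0350.67 near the ankyrin gene unc-44 (696), C48B6.13 near asd-2, an RNA-binding splicing regulator (689), T19F4.6 near the spectrin gene unc-70 (578), and T04C12.29 near the actin gene act-1 (578). These noncoding genes carry no role in the annotation used.

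The neighbours of the distal peaks included many muscle genes. The nearest 5' end belonged to 487 different genes, 2.82% of the 17242 autosomal protein-coding genes. Only 9501 genes had any eligible sequence nearest to them, so the others could not be counted and 2.82% is a low baseline. In the sarcomere list, the contractile unit of muscle, 10 of 21 autosomal genes were the nearest gene of a distal peak, and in the list for membrane excitation and calcium handling 10 of 27 were. The list for attachment to the membrane and basement membrane had 4 of 22, and the regulators of muscle and mesoderm fate 6 of 34. All 4 muscle lists stood above the share for all genes, as did some of the reference lists below.

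Counted per Mb of eligible sequence nearest to their genes, distal peaks numbered 331 for sarcomere, 216 for excitation, 152 for attachment and 96.2 for fate regulators, beside 30.1 for all genes. These lists were chosen with results of these data known, and no test was made on them. By nearest gene, reference lists gave 0 of 11 intestine genes, 0 of 23 germline and maternal genes, 1 of 10 pharynx, 3 of 21 neuron and 2 of 18 hypodermis and epithelium genes. Counting genes that flank the gap of a distal peak gave 2 of 11 intestine and 4 of 21 neuron genes, and left the other 3 unchanged. By that count the muscle lists had 13 of 21 sarcomere, 11 of 27 excitation, 8 of 22 attachment and 7 of 34 fate regulator genes. All autosomal genes had 876 of 17242. Among broad families, 1 of 74 ribosomal protein, 6 of 246 nuclear hormone receptor, 2 of 45 homeobox ceh, 2 of 129 collagen and 0 of 68 histone genes were the nearest gene of a distal peak. The eligible sequence nearest to germline, histone and intestine genes was only 0.00858, 0.0165 and 0.0266 Mb, beside 0.0363 Mb for sarcomere. Few or no peaks could be looked for there at 30.1 per Mb, so a count of 0 in these lists says little. Per Mb, distal peaks numbered 68.3 for neuron, 55.9 for pharynx and 47.01 for hypodermis and epithelium, also above the value for all genes but from 3, 1 and 2 peaks. Standing above all genes was therefore not limited to the muscle lists.

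**Figure D3:**
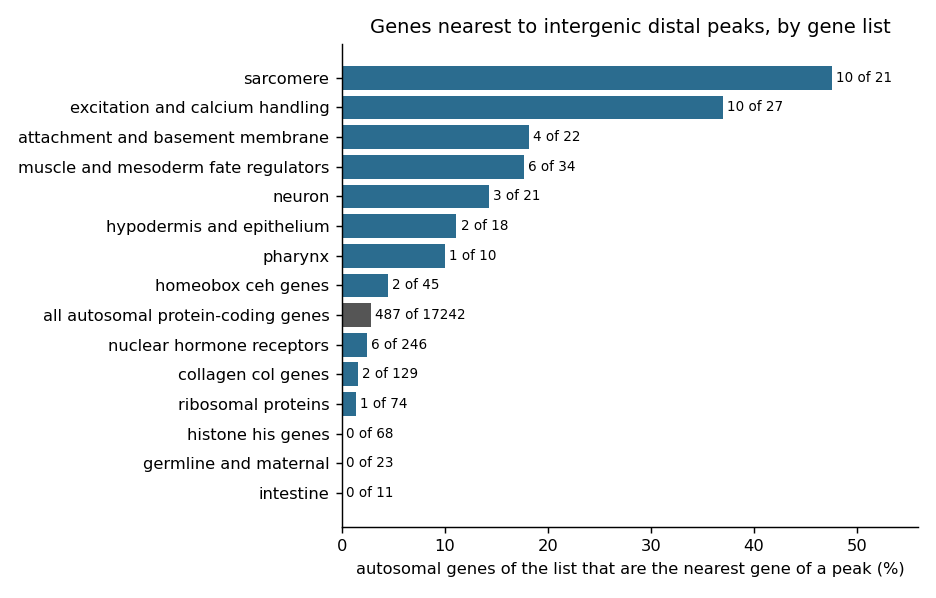
Percent of autosomal genes in each list that are the nearest gene of a distal peak; numbers give the genes. The grey bar shows all autosomal protein-coding genes, at 2.82%, including genes with no eligible sequence nearest to them. The sarcomere and excitation bars reach 10 of 21 and 10 of 27 genes.

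Sarcomere genes carried 12 distal peaks with a median score of 382. The strongest were a pair downstream of the 5' end of act-1, an actin gene of a close-set family, at 2827 bp with a score of 583 and replicate ranks of 285 and 326, and at 1650 bp, where the score was 578 and the ranks 309 and 339. No similar copy of either summit sequence was found elsewhere in the genome. The titin-like gene ttn-1 followed with 500 (1643 bp upstream, ranks 431 and 475). The calponin-related gene unc-87 carried a pair of peaks with scores of 416 and 366, 2307 and 1370 bp upstream.

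Other sarcomere scores were 406 at the calponin gene cpn-3, 398 at the alpha-actinin gene atn-1, 345 at the myosin gene unc-54, 262 at the tropomodulin gene tmd-2, 228 at the tropomyosin gene lev-11 and 198 at the actin gene act-3. The cpn-3 summit lay 829 bp downstream of that gene's 5' end, past its 3' end. The peak at the myosin gene myo-3, with a score of 250, had no summit within 200 bp in replicate 1 and rank 1979 in replicate 2. By this match of summits, its support comes from replicate 2 and the pooled list. Whether its region overlaps a region of replicate 1 was not examined separately. Of the 12 sarcomere peaks, 10 were in the top of both replicates, beside 77.7% of all distal peaks.

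Peaks of the excitation and calcium list numbered 11, with a median score of 340. They were strongest upstream of the dystrobrevin gene dyb-1 (score 634, ranks 275 and 172), the large-conductance potassium channel gene slo-1 (580, ranks 410 and 237, with a weaker summit of 253 beside it), the calcium channel beta subunit gene ccb-1 (502, ranks 454 and 449) and jph-1 (500, ranks 645 and 318). Weaker peaks lay upstream of the ryanodine receptor gene unc-68 (462), the potassium channel gene unc-103 (340), the acetylcholine receptor genes unc-29 (325), unc-63 (223) and acr-16 (216), and the calcium pump gene sca-1 (204). The sca-1 peak lay 7491 bp upstream, farther than the others of this list.

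Attachment genes carried 6 distal peaks, with a median score of 356. The talin gene tln-1 had 3 of them, with scores of 736, 291 and 223, and the strongest ranked 110 and 198. The summits with scores of 736 and 291 lay only 203 bp apart and were counted separately. The vinculin gene deb-1 followed with 508 (1408 bp upstream, ranks 468 and 356), the alpha integrin gene pat-2 with 410 and the PDZ-LIM gene alp-1 with 303. All 6 were in the top of both replicates, as were 77.7% of all distal peaks.

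A distal peak and a peak in the gene's own 5' window did not go together to the same degree in every list. Of the 487 nearest genes, 82 (16.8%) also had a summit in their own 5' window, against 8.88% of all autosomal protein-coding genes. The share was 8 of 10 in the sarcomere list, 6 of 6 among fate regulators, 2 of 10 in the excitation list and 1 of 4 in the attachment list. The share over all genes of each list, with or without a distal peak, is not set beside these. Whether the 2 kinds of peak go together within a list is therefore not shown. Genes with a distal peak and no summit in their own 5' window included deb-1, pat-2, alp-1, ccb-1, acr-16, unc-68 and unc-87.

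The regulators of muscle and mesoderm fate carried 9 distal peaks. At unc-120, the peaks upstream had scores of 880 (1114 bp) and 315 (2957 bp), and a peak in the same gap, nearer to F10D11.6, had 215. The strain carries transgenic unc-120 DNA, and its part in the level at this locus was not tested. At hlh-1, a distal peak 2088 bp upstream scored 582 with replicate ranks of 172 and 578, a wider split than at the stronger peaks. The Hox genes lin-39 and ceh-13, which share a gap, had distal peaks of 484 and 293. A weaker lin-39 peak at the noncoding gene linc-57 scored 186, with ranks of 3521 and 3028, outside the top of both replicates. The MEF2 homologue mef-2 had a peak of 353, and the Meis-type homeobox gene unc-62 had 352. A weaker unc-62 summit, with a score of 229, lay 204 bp from the stronger. Of the 9 fate regulator peaks, 7 were in the top of both replicates.

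Genes of the pharynx, neuron and hypodermis lists had 6 distal peaks. The pharynx regulator pha-4, a FoxA homologue, had a score of 233 in a convergent gap. In the neuron list, unc-33, which acts in axon growth, had 287, the synaptotagmin gene snt-1 279 and the syntaxin gene unc-64 256. The snt-1 summit lay 11571 bp downstream of that gene's 5' end, past its 3' end. The spectraplakin gene vab-10 had 220 and the cadherin gene hmr-1 had 195. None of these 6 peaks reached the median score of all distal peaks, 293. In the broad families, scores were higher in places, at 766 for nhr-20 and 337 for nhr-4, another nuclear hormone receptor gene.

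Most distal peaks were spread out, and a few gaps were crowded. The peaks occupied 444 gaps, of which 347 held 1, 73 held 2 and 19 held 3. The 9 summits in the 18574 bp between snt-1 and egl-27, which encodes an MTA-type chromatin factor, were the most in any gap, and egl-27 was the nearest gene of 8 of them. Their scores ran from 193 to 484, so none was among the strongest, and they included a run of 5 over 2597 bp and a run of 3 over 1558 bp. The rank of each in the replicate lists ran from 503 to 5998 in replicate 1 and from 551 to 4560 in replicate 2.

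The gap of the strongest distal peak held 5, of which the other 4 scored from 251 to 767. Between irld-55 and Y37A1B.7, a convergent gap of 17966 bp held 4 summits within 1189 bp, all in the same region of the list and beside mir-52 or noncoding genes, with scores of 541, 323, 946 and 302. Between somi-1 and cutl-1, 12565 bp held 4 with scores from 225 to 599.

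Another summit of the list lay within 1000 bp for 109 of 578 distal peaks (18.9%, Wilson 95% interval 15.9 to 22.2), beside 15.9% of all nuclear peaks. Neighbouring distal summits up to 1000 bp apart numbered 53 pairs, and 34 of these were 199 to 211 bp apart, with only 1 more pair up to 600 bp. Neighbours at this spacing can share a summit in a replicate list, since matching used 200 bp.

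**Figure D4:**
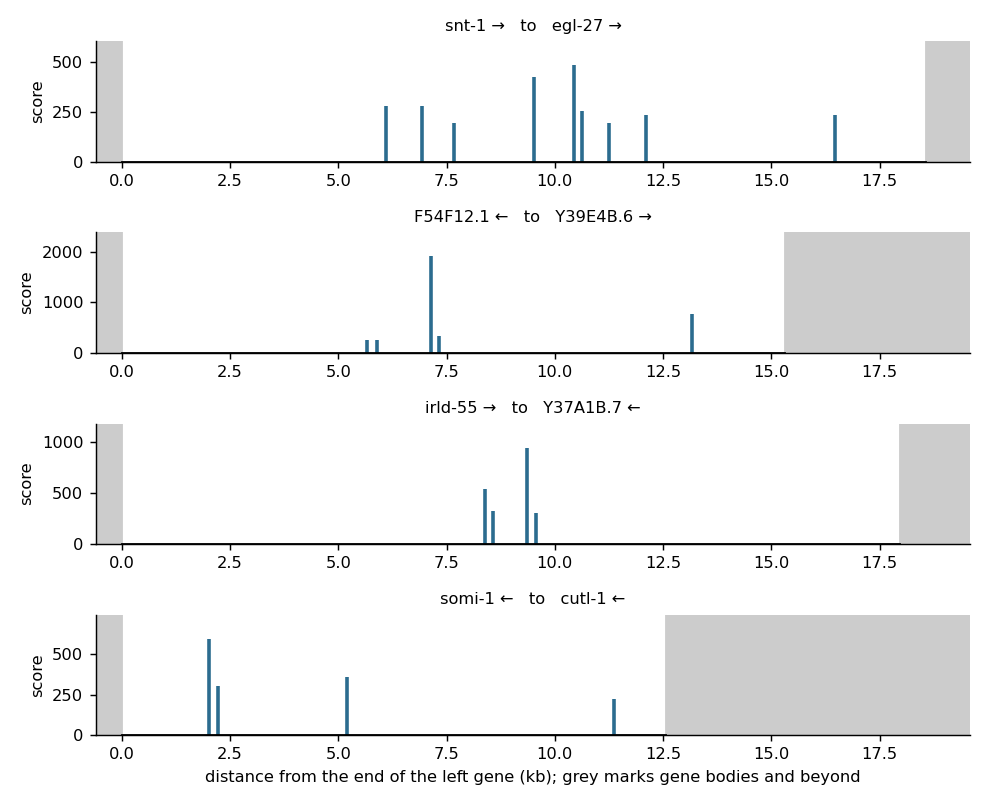
Distal peaks in 4 crowded gaps between protein-coding genes. Height is the score, x is the distance from the end of the left gene in kb, arrows give the strand of the flanking genes and grey marks gene bodies. The snt-1 to egl-27 gap holds 9 summits, all under a score of 500, and the F54F12.1 gap holds the peak with a score of 1913.

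Short sequences near the summits were counted within 100 bp on either side, both strands, beside windows of 201 bp tiled over the eligible sequence. GAGAGAGA, shown in capitals at egl-9 and T23F11.4, was present at 154 of 578 distal peaks (26.6%, Wilson 95% interval 23.2 to 30.4). It was present at 24.5% of distal peaks in gene bodies, 13.5% of 5' window peaks, 16.3% of all nuclear peaks and 1.74% of tiled windows. The interval of the distal peaks stood above the 5' window value, and this difference over peaks was not tested over samples. Distal peaks were richer in G and C than the tiled windows, and with both held to a GC content of 41.8 to 49.3% the shares were 28.3% of 293 distal peaks and 4.25% of 12457 windows.

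The GA repeats lay at a median of 32.5 bp from the summits, with 100 of 154 (64.9%) within 50 bp, in a search limited to 100 bp. Other sequences lay about as close, with 63.9% within 50 bp for CACACACA (median 33.5 bp) and 65.4% for CAGCTG (37 bp). Medians were larger for the E-box CACCTG (51.5 bp), the GATA site TGATAA (46 bp) and the CArG box (57 bp). The longest uninterrupted GA runs were 11 bp at the median and 48 bp at most, and 14 peaks had a run of at least 20 bp. Of distal peaks with the repeat 82.5% were in the top of both replicates, against 75.9% of the others, and their median scores were 299 and 292. The repeat was absent from all 12 sarcomere peaks and present at 5 of the 11 excitation peaks, 2 of the 6 attachment peaks and 2 of the 9 fate regulator peaks.

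CACACACA, marked in the gpb-1 sequence, was present at 72 distal peaks (12.5%, 10.01 to 15.4), beside 14.0% of distal peaks in gene bodies. It was present at 7.82% of 5' window peaks, 9.95% of all nuclear peaks and 1.43% of tiled windows. The E-box CAGCTG was present at 52 (9.0%, 6.93 to 11.6), beside 9.10% of 5' window peaks, 9.4% of all nuclear peaks and 2.95% of tiled windows. In the shared GC range its share was 9.22% of distal peaks and 4.34% of windows. The E-box CACCTG was present at 51 (8.82%, 6.77 to 11.4), beside 4.42% of 5' window peaks, 11.5% of gene body peaks, 6.59% of all nuclear peaks and 4.62% of windows. Only 13 distal peaks held both GAGAGAGA and CAGCTG, and 385 held neither.

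The CArG box, the site of the SRF family, was present at 8 of 578 distal peaks (1.38%, 0.703 to 2.71). It was present at 1.62% of 5' window peaks, 1.46% of all nuclear peaks and 1.19% of tiled windows, and the shares were 1.37 and 1.40% in the shared GC range. The strongest was near the kinesin gene unc-116, with a score of 349, and none of the 8 was nearest a gene of the muscle lists. TGATAA, the GATA site, was present at 60 (10.4%, 8.15 to 13.1) beside 10.6% of all nuclear peaks and 17.3% of tiled windows, and at 10.6 and 9.91% in the shared GC range. The B box letters were present at 1 distal peak, that of mir-51, beside 4.68% of all nuclear peaks, a set that includes the peaks at tRNA genes, which the rule leaves out. A match here is a description of letters, not of binding.

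**Figure D5:**
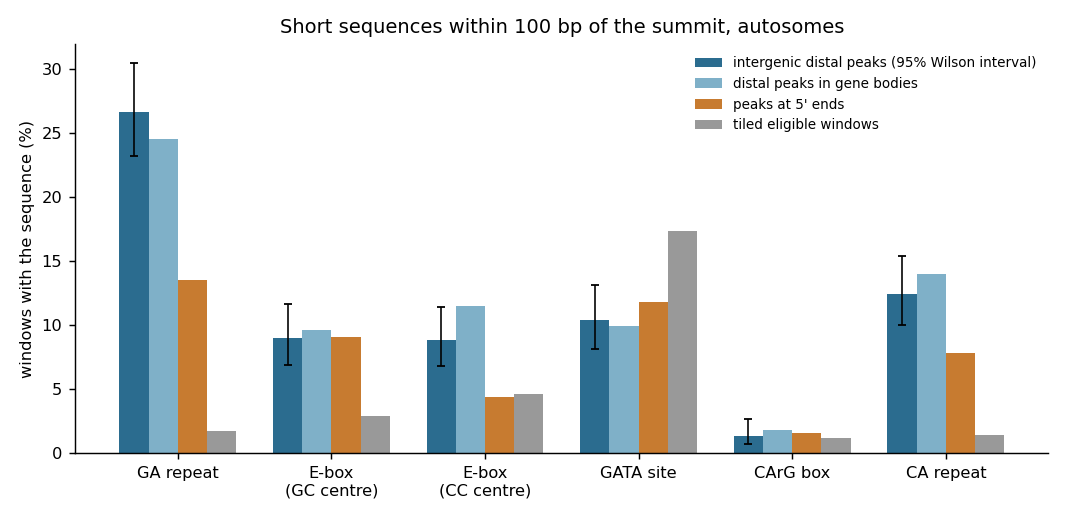
Percent of windows that hold each short sequence within 100 bp of the summit, for distal peaks (with Wilson 95% intervals), distal peaks in gene bodies, 5' window peaks and tiled eligible windows of the autosomes. GAGAGAGA stands at 26.6% of distal peaks and 1.74% of windows, and the CArG box at 1.38 and 1.19%.

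The rule was also applied to the authors' full ranked list of pooled regions. The share of autosomal regions that met it was 25.4% in the thresholded list, 21.9% at ranks 2947 to 11946, 18.5% at ranks 11947 to 20946 and 18.1% at ranks 20947 to 29995. The share in 5' windows went the same way, from 51.6% to 40.4, 34.3 and 32.7%. Intergenic distal sequence made up 23.3% of the autosomes, so the share in the thresholded list was the only 1 of these 4 above it.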

How the data were processed

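The deposited files are region lists in narrowPeak format from 2 replicates of anti-GFP ChIP-seq. Column 7 of the deposited lists holds a score, the strength the authors' software gave each region, on an unstated scale. Column 9 of the deposited lists is the -log10 of a q-value, which was not used. The aligner was not given in the sources used here, nor was the peak caller. Read depth is unknown, and intervals are Wilson intervals over peaks only, and cover no variation between cultures. The authors' ce11 list, thresholded on the irreproducible discovery rate (IDR), held 2951 regions, and 5 mitochondrial regions were set aside. The ce10 lists and the control experiment named in the labels were not used here.

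Summits were placed on WBcel235, the sequence of ce11, with Ensembl release 115 gene models and the RefSeq genome sequence of that assembly. Coordinates count from 1. A replicate rank is that of the nearest summit within 200 bp in that replicate's list. Similar copies were found with BLAST+ 2.17.0 (80% identity over at least 160 of 201 bp). Shares of sequence were counted base by base, and short sequences were matched exactly on both strands.

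Members and gene lists were chosen with earlier results of these data known. Named peaks were the 15 strongest, up to 6 per gene list, the 10 strongest in noncoding genes, those at the shortest and longest distances, and groups of 3 or more within 1000 bp. Other names were chosen after values were seen. Alternatives changed the windows, the threshold, the matching and the replicates. Among crowded gaps, 1 is not reported here. The functions were tested on simulated regions. Computations used Python 3.11.15, numpy 2.4.6, pandas 2.3.3, scipy 1.17.1 and matplotlib 3.10.9.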

Additional observations from a re-analysis of the deposited data

How the results depend on the processing

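Of 81 values recomputed under 19 alternatives, 62 stayed, counts by a factor of 1.5 and other values by their 95% interval. The other 19 moved, and the cause was not tested beyond what the alternative changes by construction. The number of distal peaks became 345 with a 5' window from 2000 bp upstream and 290 among the 1473 strongest nuclear peaks. Among those, the median score was 405, the share in the top of both replicates 99.0% and the sarcomere neighbours 6. In a single replicate's list, with its own score scale, the median score was 139.6 to 158.8, and the share with a summit within 1000 bp 14.9 to 17.2%. That share was 12.5% within 500 bp, 34.4% within 2000 bp and 13.6% with 1 summit per 400 bp. At noncoding genes the share was 24.4% by region overlap and 24.4% within 200 bp. By any overlap of regions, 82.2% were in the top of both replicates. With 50 bp on each side, GAGAGAGA stood at 16.8%, CAGCTG at 5.71% and the CArG box at 0.519%, and with 200 bp the first pair stood at 33.9 and 13.8%. The 400 bp spacing and the omission of 16 peaks with similar copies were chosen after seeing the data, and the latter left 562 peaks. The share in the top of both replicates cannot be computed with a replicate left out. No paired analysis was possible because there is only 1 group of samples. Unknown depth limits statements about regions below the lists' thresholds.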
